A study of Mus musculus with 24 samples.

Results

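The control arm of a tRNA fragment study in mouse islets consisted of 6 mRNA sequencing libraries of the 24 in the series. The members were the libraries labelled Ctr and BSA, which carry the library names S1, S5 and S9 in batch 1 and S13, S17 and S21 in batch 2. They came from wild-type mice, whose islets had been dispersed into single cells. The cells were transfected with a control antisense oligonucleotide (Ctr) and then kept with bovine serum albumin (BSA), the carrier of the fatty acid in the palmitate (PA) arms. The other 18 libraries had received PA, the antisense oligonucleotide αGlu against a fragment of the glutamate tRNA, or both, and were not compared here. The labels give no age or sex. The methods of the study name adult male and female C57BL/6NRj mice for such preparations and state that each replicate came from a different animal. No untransfected and no freshly isolated cells were among the samples, so each level below is that of transfected and cultured cells. What the labels mean by a batch is not stated.

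Pancreatic islets are small clusters of endocrine cells within the exocrine pancreas. In the mouse most islet cells are β-cells, which store insulin in dense granules and release it when the metabolism of glucose closes potassium channels and opens calcium channels. α-Cells make glucagon, δ-cells somatostatin and PP cells pancreatic polypeptide. Islets also hold capillaries, stromal cells, nerve-associated glia and resident macrophages, and acinar cells, which secrete digestive enzymes, surround them.

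The genes that separate these cell types are switched on through short promoter elements. The stretches of 250 bases before the RefSeq start sites of hormone and acinar genes are shown because these genes mark cell types described below. Summed acinar genes varied more between the libraries than summed hormone genes did. Ins1 and Iapp stand for β-cells, Gcg for α-cells and Sst for δ-cells, and Ctrb1 and Prss2 for acinar cells. Capitals in the hormone promoters mark the E-box core CATCTG, the homeodomain core CTAATG, the cyclic AMP element TGACGTCA and the TATA box TATAAA, searched on both strands. Of 27025 RefSeq promoters of this length, 14.5% held CATCTG, 6.48% CTAATG, 1.62% TGACGTCA and 13% TATAAA.
Ins1 (chr19:52264047-52264296, plus strand, GRCm38.p6): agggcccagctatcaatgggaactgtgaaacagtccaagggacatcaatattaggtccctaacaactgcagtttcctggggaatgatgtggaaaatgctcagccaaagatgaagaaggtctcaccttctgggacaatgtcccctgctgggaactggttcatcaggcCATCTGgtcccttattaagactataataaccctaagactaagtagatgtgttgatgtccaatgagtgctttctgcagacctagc
Iapp (chr6:142298175-142298424, plus strand): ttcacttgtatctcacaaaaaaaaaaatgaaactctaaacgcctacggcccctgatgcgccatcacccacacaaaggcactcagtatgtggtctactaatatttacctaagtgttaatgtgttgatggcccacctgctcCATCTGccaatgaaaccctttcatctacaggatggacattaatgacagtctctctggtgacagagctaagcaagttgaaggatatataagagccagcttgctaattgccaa
Gcg (chr2:62483654-62483903, minus strand): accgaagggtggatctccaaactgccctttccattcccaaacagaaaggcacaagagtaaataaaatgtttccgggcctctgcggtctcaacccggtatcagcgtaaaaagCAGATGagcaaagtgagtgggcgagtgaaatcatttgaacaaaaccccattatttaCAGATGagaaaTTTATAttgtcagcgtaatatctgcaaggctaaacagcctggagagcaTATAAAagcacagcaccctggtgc
Sst (chr16:23890845-23891094, minus strand): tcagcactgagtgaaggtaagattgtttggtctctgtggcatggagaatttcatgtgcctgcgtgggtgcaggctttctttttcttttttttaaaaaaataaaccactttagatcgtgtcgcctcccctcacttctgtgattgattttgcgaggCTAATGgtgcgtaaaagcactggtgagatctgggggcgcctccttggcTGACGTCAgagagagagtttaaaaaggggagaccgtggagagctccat

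The Ins1 stretch held 1 CATCTG match, 84 bases before the start, and the Iapp stretch held 1, 111 bases before it. Gcg, the glucagon gene, had 2 CATCTG matches on the opposite strand and 2 TATAAA matches, at 24 bases before the start and, on the opposite strand, at 72. Sst, the somatostatin gene, held the cyclic AMP element 48 bases before the start and a CTAATG 96 bases before it. The Ppy stretch, not shown, held 1 TATAAA match, and that of Pyy held none of the 4 motifs. For the acinar genes, capitals mark TATAAA and the letters CACCTG and TTTCCC, which occur in the binding site of the acinar factor PTF1. Of all promoters 17.1% held CACCTG and 21.9% held TTTCCC, and 3.63% held both.
Ctrb1 (chr8:111691011-111691260, minus strand): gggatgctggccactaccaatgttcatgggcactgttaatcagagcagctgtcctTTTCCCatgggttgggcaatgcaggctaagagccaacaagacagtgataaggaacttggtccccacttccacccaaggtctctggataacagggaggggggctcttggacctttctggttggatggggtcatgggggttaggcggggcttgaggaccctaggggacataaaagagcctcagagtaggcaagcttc
Prss2 (chr6:41521526-41521775, plus strand): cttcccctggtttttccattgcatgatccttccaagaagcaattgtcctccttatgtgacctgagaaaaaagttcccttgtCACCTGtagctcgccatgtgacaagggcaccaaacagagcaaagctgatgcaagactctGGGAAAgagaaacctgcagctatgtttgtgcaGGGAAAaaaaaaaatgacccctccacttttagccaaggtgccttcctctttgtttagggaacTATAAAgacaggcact

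The Prss2 stretch held 1 CACCTG and 2 TTTCCC matches, and the Ctrb1 stretch held TTTCCC and no CACCTG. Of the 8 acinar promoters searched, 4 held both. A match describes the letters only, and binding was not measured.

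Library totals ran from 18214719 counts in S1 to 35001979 in S5, and 18510 to 20051 genes had a count. TPM, the deposited level corrected for transcript length and scaled to the same sum in each library, is used for levels throughout. S1 stood apart. Genes of the rRNA biotype, nearly all of it the single gene CT010467.1, held 21.2% of the TPM of S1 and 1.06% to 5.31% of the other 5 libraries. Every other TPM level of S1 is lowered by that share, so shares of insulin and of all hormones are also given over protein-coding genes alone.

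The transcriptome of the control cells was dominated by few genes. At a mean of 1 TPM or more, 13888 genes were expressed, 12920 of them protein-coding, 338 long intergenic noncoding and 314 antisense. Only 57 genes reached 1000 TPM, and they held 55.5% of the total. The 25 genes of highest mean held 50.7%, and the first 1000 held 75.4%. The number of genes needed to reach 50% of a library's TPM was 8 in S1, 46 in S5, 43 in S9, 17 in S13, 23 in S17 and 16 in S21. The 3 libraries of batch 2 thus needed fewer genes than S5 and S9, and S1, with its rRNA, the fewest.

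**Figure D1:**
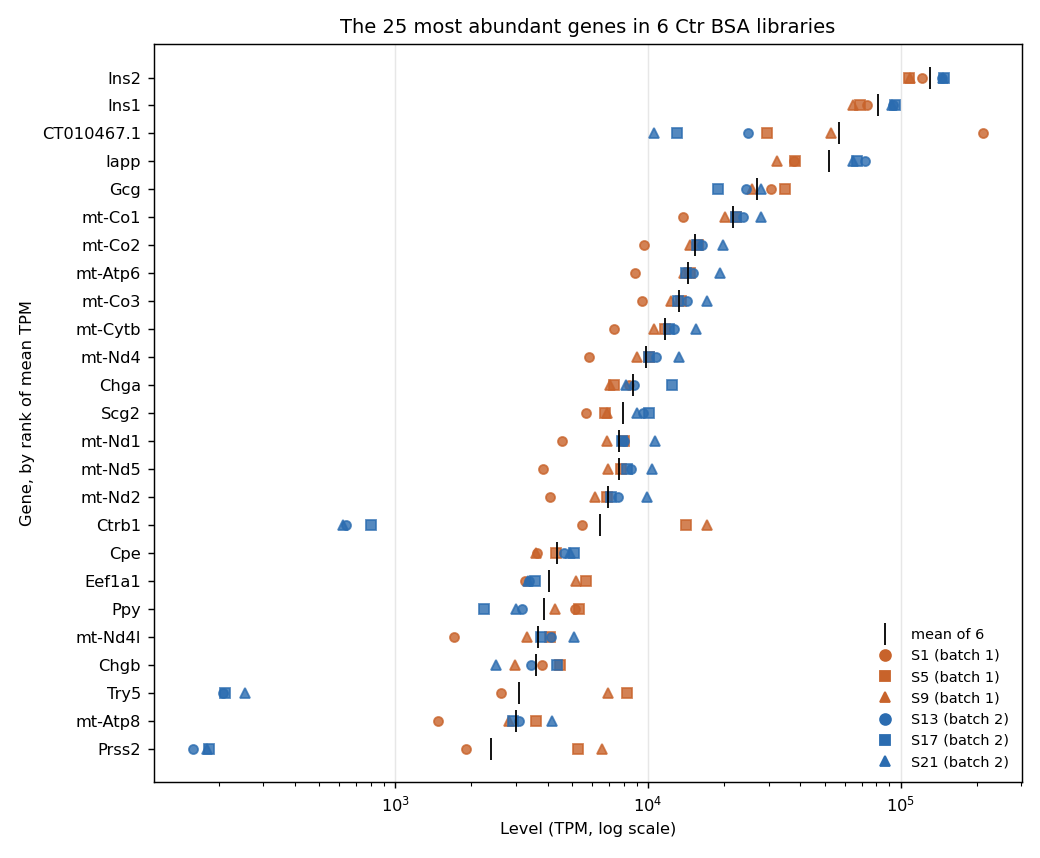
Level of the 25 genes of highest mean TPM (horizontal log axis) in each of the 6 control libraries, with the mean as a black tick. Ins2 and Ins1 lead, CT010467.1 is farthest to the right in S1, and Ctrb1, Try5 and Prss2 split into batch 1 (orange) and batch 2 (blue).

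Behind the insulin genes, most of the top 25 were other hormones, granule proteins and mitochondrial genes, beside the rRNA gene CT010467.1 and the acinar genes Ctrb1, Try5 and Prss2. Of the 13 protein-coding genes of mitochondrial DNA, 11 were among them, led by mt-Co1, a subunit of cytochrome c oxidase, at 21704 ± 4679 TPM (SD, n = 6). Mitochondrially encoded genes together held 8.07% of S1 and 11.1% to 15.7% of the other libraries. The translation factor gene Eef1a1 (4071 ± 1063 TPM) was the only nuclear housekeeping gene of the list among the 25. Gapdh, a glycolytic enzyme often used as a reference, was at 135 ± 12.6 TPM.

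The insulin genes held the first and second rank by mean TPM. Ins2, the gene shared with other mammals, was at 121657, 107932 and 108492 TPM in S1, S5 and S9 and at 146031, 148313 and 147082 TPM in S13, S17 and S21. Ins1, the rodent-specific copy, was at 73518, 69212 and 64849 TPM in batch 1 and at 92858, 94956 and 92345 TPM in batch 2. Each library of batch 2 was above each of batch 1 for both genes, and together they held 21.1% ± 3.30 of the TPM (SD, n = 6). Over protein-coding genes alone the share was 25.9% in S1, 18.5% in S5 and 18.6% in S9 against 24.4% to 24.9% in batch 2, so that S1 lay above batch 2 and the batches overlapped. The ratio of Ins2 to Ins1 was narrow, 1.60 ± 0.05, with a range from 1.56 to 1.67. Both genes are close paralogs, so part of their reads may have been assigned to the other copy.

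**Figure D2:**
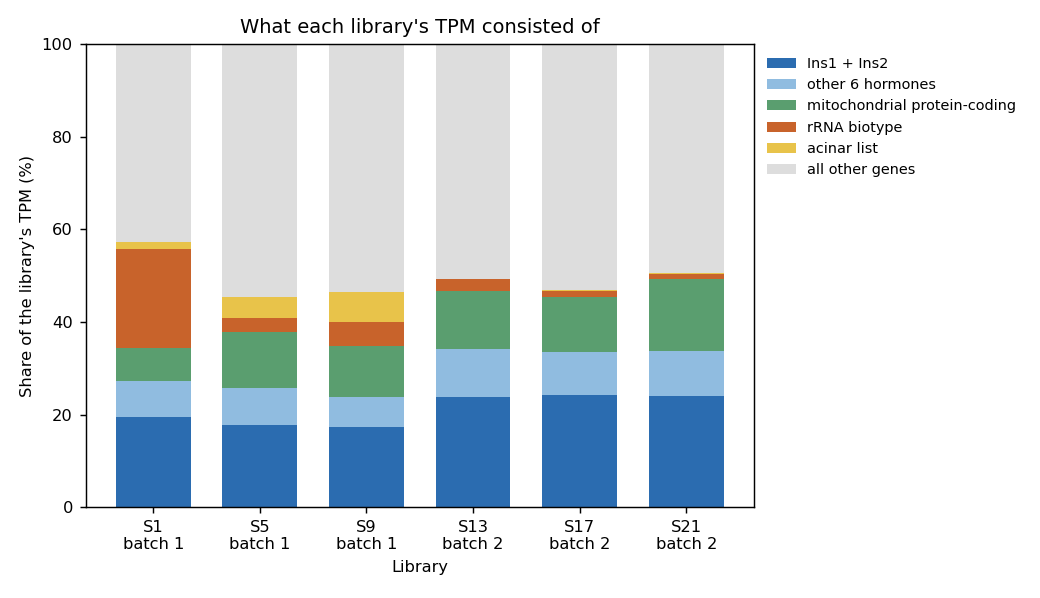
Share of each library's TPM (vertical axis, percent) held by insulin, the other 6 hormones, mitochondrial protein-coding genes, rRNA biotype genes, the acinar list and all other genes. The rRNA block is tall only in S1 (21.2%), and the acinar block is visible in batch 1 (1.61% to 6.38%) and hardly in batch 2 (0.14% to 0.19%).

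All 8 hormone genes were detected in each library. Together they held 27.3%, 25.8% and 23.9% of the TPM in S1, S5 and S9, and 34.1%, 33.4% and 33.8% in S13, S17 and S21. Over protein-coding genes these shares became 36.2%, 27% and 25.6% against 35.3%, 34.2% and 34.5%, and S1 was again the highest. Iapp encodes amylin, which β-cells release with insulin, and it was the third most abundant messenger at 37954, 38167 and 32435 TPM in batch 1 and 72152, 67215 and 64574 TPM in batch 2. Gcg was at 27055 ± 5452 TPM, from 18900 in S17 to 34836 in S5, and the batches overlapped. Pancreatic polypeptide (Ppy) was at 3856 ± 1240 TPM, peptide YY (Pyy) at 1622 ± 423 TPM and Sst at 1393 ± 243 TPM. Ghrelin (Ghrl), a hormone of ε-cells, was the lowest at 4.08 ± 2.76 TPM. The order of Pyy and Sst was not the same in each library. Pyy was above Sst in S1, S5, S9 and S13 and below it in S17 and S21.

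Hormone levels relative to insulin do not depend on the rRNA of S1. Iapp was 18.7% to 21.5% of the insulin level in batch 1 and 27% to 30.2% in batch 2. Gcg was 14.9% to 19.7% of it in batch 1 and 7.77% to 11.7% in batch 2. Ppy was 2.46% to 3.0% of insulin in batch 1 and 0.92% to 1.33% in batch 2, and Sst, at 0.62% to 0.84% and 0.47% to 0.70%, overlapped. Relative to insulin, amylin was thus higher and glucagon and pancreatic polypeptide lower in each library of batch 2. With 3 libraries against 3, the smallest two-sided exact permutation p is 0.1, so no single ratio can pass 0.05. In such bulk RNA fewer cells of a type and less RNA per cell cannot be told apart.

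Since batch was the only labelled difference among the 6 libraries, each gene was tested between the batches. In edgeR's quasi-likelihood test on the counts, 2620 of 15393 genes were called at a Benjamini-Hochberg adjusted p below 0.05, which is 17% of all genes tested. In batch 2, 1155 genes (7.50%) were higher and 1465 (9.52%) were lower, and the median log2 fold change over all genes tested was -0.01. These percentages are the background for each list below. Left out one at a time, S1 raised the number called to 4334, and S5, S9, S13, S17 and S21 lowered it to 1309, 1402, 930, 1388 and 1293. Of the 2620 genes, 2542 were also called without S1.

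The 5 called genes with the smallest p in each direction were Ttyh1, Kcnh1, Car10, Aldh1l2 and Olfm4 (higher in batch 2) and Try5, Cckar, Prss2, Ctrb1 and S100a6 (lower). Aldh1l2, a mitochondrial folate enzyme, was at 18 to 26.7 TPM in batch 1 and 44.4 to 48.6 TPM in batch 2 (log2 fold change 0.90, SE 0.08, adjusted p = 0.00112). Kcnh1, a potassium channel, was at 3.71 to 5.33 and 10.2 to 11.3 TPM. Cckar, the cholecystokinin receptor of acinar cells, was at 23.1, 73.3 and 53.4 TPM in batch 1 and 2.12 to 2.64 TPM in batch 2, a log2 fold change of -4.42 (SE 0.31). S100a6, a calcium-binding protein, was at 75 to 124 TPM against 34.3 to 40.7 TPM. Of these 5 lower genes, 4 are acinar genes by their known roles.

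Among the hormones, Iapp was called higher in batch 2 (log2 fold change 0.78, SE 0.16, edgeR adjusted p = 0.0154) and Ppy lower (-0.93, SE 0.20, adjusted p = 0.0164). Ins2 (0.25, SE 0.17, adjusted p = 0.35) and Ins1 (0.30, SE 0.16, adjusted p = 0.24) were not called, nor were Gcg (-0.47, SE 0.20, adjusted p = 0.15) and Sst (-0.15, SE 0.25, adjusted p = 0.74). Without S1, Ins1 and Ins2 were called, with log2 fold changes of 0.55 and 0.51. The call on insulin therefore turned on S1. Iapp was no longer called without S5 or without S13, and Ppy without S17.

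The clearest difference between the libraries was in acinar genes. The 20 genes of the acinar list summed to 16129, 45201 and 63805 TPM in S1, S5 and S9 and to 1448, 1896 and 1519 TPM in S13, S17 and S21. In edgeR's test 19 of the 20 were lower and 1 was higher in batch 2, with a median log2 fold change of -5.06, and without S13, the library whose removal changed this most, 18 were lower. Ctrb1, the precursor of chymotrypsin, was at 5480, 14143 and 17064 TPM in batch 1 and at 638, 803 and 622 TPM in batch 2. Relative to Ins2, it was 4.50% to 15.7% in batch 1 and 0.42% to 0.54% in batch 2. Prss2, a trypsinogen, was at 1904, 5283 and 6571 TPM and at 159, 183 and 180 TPM (log2 fold change -4.75, SE 0.33, adjusted p = 0.00112).

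Enzymes of fat and starch digestion spread even more within batch 1. Pancreatic lipase (Pnlip) was at 543, 1694 and 4238 TPM in S1, S5 and S9 and at 21.3, 44.8 and 31.1 TPM in batch 2. Pancreatic amylase (Amy2a5) was at 291, 1067 and 2193 TPM and at 22.4, 36.9 and 22.7 TPM. S9 was the highest and S1 the lowest of batch 1 for both. Ptf1a, a transcription factor of acinar cells, was at 13.8, 42.7 and 36.1 TPM against 1.02, 1.20 and 1.46 TPM. The 1 list gene higher in batch 2 was Bhlha15, a transcription factor of secretory cells, at 21.8, 27 and 29.7 TPM and at 49.9, 49.95 and 47.3 TPM (log2 fold change 0.81, SE 0.09, adjusted p = 0.00140). Try4, Try5 and Prss2, and the pancreatic amylase copies, are near-identical in sequence, and reads may be split between them.

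Ductal markers went partly with the acinar genes. Of the 12, 7 were lower in batch 2 (5 to 7 with any 1 library left out), with a median log2 fold change of -1.36. Krt19, a keratin of duct cells, was at 144, 339 and 330 TPM in batch 1 and at 31.9, 49 and 28.2 TPM in batch 2 (log2 fold change -2.95, SE 0.26). Tff2, a trefoil peptide, was at 57.7, 134 and 224 TPM against 2.63, 4.22 and 2.95 TPM. Krt7 (95.5 ± 17.1 TPM) and Spp1 (73.8 ± 22.3 TPM), a keratin and a secreted phosphoprotein, were not called.

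**Figure D3:**
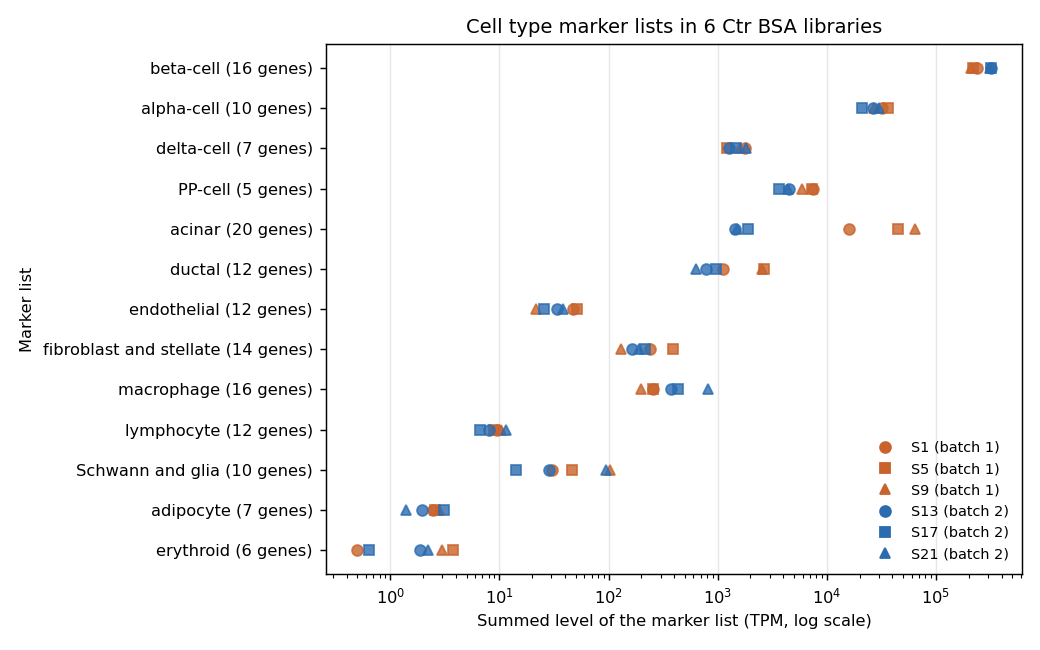
Summed level of each cell type marker list (horizontal log axis, TPM) in each of the 6 control libraries, orange for batch 1 and blue for batch 2. By its mean the β-cell list is the highest and the erythroid list the lowest, and the acinar list separates the batches most, at 16129 TPM or more in batch 1 and at most 1896 TPM in batch 2.

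β-Cell genes were high in each library. All 16 genes of the β-cell list were above 0 in the 6 libraries, with means from 43 TPM for Rgs16 to 129918 TPM for Ins2. G6pc2, the islet glucose-6-phosphatase, was at 948, 1198 and 1033 TPM in batch 1 and at 2244, 2247 and 2349 TPM in batch 2. Ucn3, a peptide of mature β-cells, was at 396, 385 and 390 TPM and at 748, 822 and 786 TPM. Both were higher in each library of batch 2, with log2 fold changes of 1.00 (SE 0.11, adjusted p = 0.00145) and 0.89 (SE 0.14, adjusted p = 0.00486). In edgeR's test 9 of the 16 were higher and none lower in batch 2 (14 without S1, 7 to 9 without each other library), with a median log2 fold change of 0.60. The acinar list fell in the same comparison from between 16129 and 63805 TPM to between 1448 and 1896 TPM, and its part in the β-cell difference was not tested.

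Transcription factors that keep endocrine identity summed to 1781 to 2032 TPM in batch 1 and to 2426 to 2588 TPM in batch 2, and few of them were called singly by edgeR. Mafa was the highest of the 23, at 515 ± 121 TPM, followed by Nkx6-1 at 279 ± 49.1 TPM and Pdx1 at 238 ± 57.2 TPM, all of them β-cell regulators. Neurod1 (196 ± 33.5 TPM), Insm1 (148 ± 26.7 TPM), Pax6 (104 ± 13.5 TPM) and Isl1 (102 ± 10.2 TPM), which act in several endocrine types, came next. The δ-cell factor Hhex (2.97 ± 0.77 TPM) was lower. Neurog3, the factor of endocrine progenitors, was at 1.98 ± 0.99 TPM and Pax4 at 0.10 ± 0.10 TPM. Of 22 tested, Pdx1 was higher in batch 2 (log2 fold change 0.51, SE 0.10, adjusted p = 0.0103) and 1 other was lower, both below the background share, whereas DESeq2 called 5 higher and 4 lower. Pdx1 lost its call without S13. Without S1, 7 were higher and 3 lower, and without S13 none was called, where all 6 libraries gave 11 at an unadjusted p below 0.05.

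The granule proteins were among the most abundant messengers. Chromogranin A (Chga) was at 8704 ± 1939 TPM, secretogranin II (Scg2) at 7984 ± 1784 TPM and chromogranin B (Chgb) at 3597 ± 781 TPM. Carboxypeptidase E (Cpe), which trims prohormones, was at 4363 ± 633 TPM. The prohormone convertase Pcsk2 (2357 ± 542 TPM) was 3.59 ± 0.59 times as high as Pcsk1 (673 ± 180 TPM), and the ratio was highest in S1, at 4.73. In batch 2, 9 of the 15 granule genes were higher and none lower, with a median log2 fold change of 0.46 (13 higher without S1, 1 without S13 and 3 to 6 without each of the others). The zinc transporter Slc30a8, which loads zinc for insulin crystals, moved most among those called, from 261, 355 and 352 TPM to 594, 551 and 635 TPM (log2 fold change 0.79, SE 0.09, adjusted p = 0.00188).

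Genes that couple glucose to secretion were expressed at moderate levels. Abcc8 and Kcnj11, the subunits of the ATP-sensitive potassium channel, were at 619 ± 68 and 49 ± 7.84 TPM. Neither channel subunit was called between the batches. The glucose transporter Slc2a2 was at 84.2, 133 and 142 TPM in batch 1 and at 224, 184 and 252 TPM in batch 2 (log2 fold change 0.81, SE 0.14, adjusted p = 0.00794), while Slc2a1 was at 28.5, 51.7 and 46.4 TPM against 25.3, 21.6 and 19.2 TPM (-1.01, SE 0.13, adjusted p = 0.00262). The ratio of Slc2a2 to Slc2a1 was therefore 2.57 to 3.05 in batch 1 and 8.50 to 13.2 in batch 2. Of the 14 coupling genes 5 were higher and 1 lower in batch 2, with a median log2 fold change of 0.27 (3 higher and none lower without any 1 library other than S1, 7 and 1 without S1).

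Receptors for gut peptides and fatty acids were well expressed. Glp1r, the receptor of glucagon-like peptide 1, led the 23 receptors at 324 ± 97.5 TPM, and Gipr was at 84.9 ± 14.6 TPM. Ffar1, which senses long-chain fatty acids such as palmitate, was at 44.4, 52.6 and 54 TPM in batch 1 and at 103, 97.7 and 102 TPM in batch 2. Ffar4, another receptor of long-chain fatty acids, was at 8.07 ± 1.53 TPM. The glucagon receptor Gcgr was at 24.3 ± 6.83 TPM, and the leptin receptor Lepr at 0.13 ± 0.07 TPM. In batch 2, 11 of the 23 were higher and none lower, with a median log2 fold change of 0.43 (15 higher and 1 lower without S1, 6 to 8 higher without each other library). Prlr, the prolactin receptor, moved most among those called, from between 11.3 and 21.2 TPM to between 41.5 and 47.7 TPM (log2 fold change 1.33, SE 0.13, adjusted p = 0.00128).

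Genes known as disallowed in β-cells, which most other tissues express, were low in these mixed cells. The 17 genes had means from 0.58 TPM (Maf) to 39.1 TPM (Ldha). Lactate dehydrogenase A (Ldha) was at 36.9, 70.2 and 46.8 TPM in batch 1 and at 24.7, 29.3 and 26.7 TPM in batch 2, and the lactate carrier Slc16a1 was at 1.37, 5.20 and 4.69 TPM against 1.46, 1.35 and 1.21 TPM. Low-Km hexokinase Hk1 was at 4.16 ± 1.54 TPM. In batch 2, 10 of the 17 were lower and none higher, with a median log2 fold change of -0.91 (5 to 11 lower with any 1 library left out). The part of acinar and ductal cells, whose marker lists fell in the same comparison, was not tested.

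**Figure D4:**
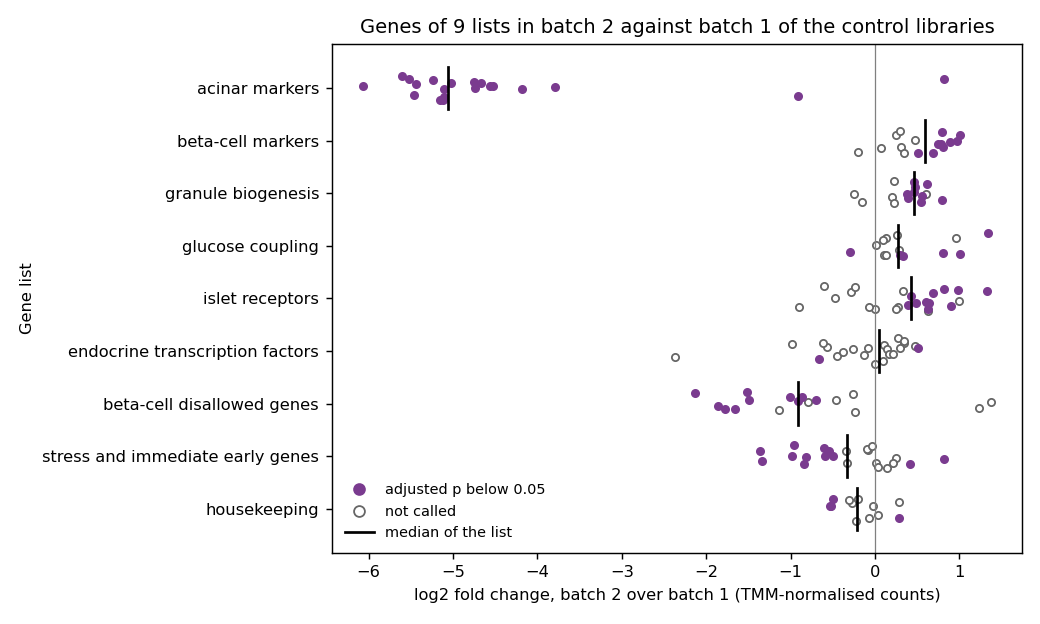
Log2 fold change of batch 2 over batch 1 (horizontal axis) for each tested gene of 9 lists, filled where the edgeR adjusted p is below 0.05, with the list median as a black bar. The acinar median is at -5.06, the β-cell median at 0.60 and the median of disallowed genes at -0.91, while the transcription factor median is at 0.05.

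Stress genes were readily detected in the control cells. The ER chaperones Hspa5 and Hsp90b1 were at 1162 ± 221 and 791 ± 185 TPM, and Atf4, a factor of the integrated stress response, at 403 ± 41.3 TPM. The immediate early genes Fos (20.5 ± 5.12 TPM) and Egr1 (14.5 ± 3.42 TPM) were low. Txnip, a redox protein that follows glucose, was at 265, 487 and 432 TPM in batch 1 and at 152, 168 and 172 TPM in batch 2 (log2 fold change -1.34, SE 0.12, adjusted p = 0.00114). Of 22 tested, 10 were lower in batch 2, among them Cdkn1a, Hmox1 and Atf3, and 2 were higher, the chaperones Dnajb9 and Hsp90b1. The median log2 fold change was -0.33, and 7 to 10 were lower with any 1 library left out.

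Proliferation markers were low and D-type cyclins were not. Mki67 was at 4.81 ± 2.94 TPM and Top2a at 2.68 ± 1.83 TPM, while Ccnd2 and Ccnd1 were at 200 ± 53 and 120 ± 33.4 TPM. These 4 genes were the ones called of the 12 tested, each higher in batch 2. For Mki67 the values were 1.37, 4.0 and 2.17 TPM in batch 1 and 7.31, 5.05 and 8.99 TPM in batch 2 (log2 fold change 1.44, SE 0.31, adjusted p = 0.0158), a call lost without S9, S13 or S21. With 1 library left out, between 1 (S13 or S21) and 6 (S5) of the 12 were called.

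Interferon genes stayed at 21.7 TPM (Usp18) or below on average. In batch 2, 6 of 15 tested were lower, among them Isg15, a ubiquitin-like effector, at 4.22, 6.43 and 2.85 TPM against 0.31, 0.74 and 1.36 TPM (log2 fold change -2.53, SE 0.60, adjusted p = 0.0246). Without S5 or S13, none was lower, and without S17 Isg15 was not called. Of 12 housekeeping genes, Eef1a1, Rplp0 and Actb were lower and Hprt higher in batch 2, and without S5, S9, S13, S17 or S21 only 1 was lower and none higher. Actb was at 651, 1188 and 968 TPM and at 659, 733 and 701 TPM (log2 fold change -0.49, SE 0.12, adjusted p = 0.0250), a call that held without S1 and was lost without each other library.

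The machinery that makes or binds tRNA fragments, the subject of the study, was present in the control cells. Angiogenin (Ang), a nuclease that cuts tRNA, was at 47.4 ± 11 TPM, and its inhibitor Rnh1 at 87.3, 147 and 130 TPM in batch 1 and 77.1, 96.9 and 72.3 TPM in batch 2 (log2 fold change -0.64, SE 0.12, adjusted p = 0.00942, not called without S13). Dicer1 was at 36.6 ± 6.35 TPM and Ago2 at 46.6 ± 8.58 TPM, both proteins of small RNA pathways. Ybx1, an RNA-binding protein, was the highest of the list at 204 ± 36.8 TPM. Of 22 tested, 1 was higher and 3 were lower in batch 2, with a median log2 fold change of -0.10. Without S13 none was called, without S9 or S21 only 1, and without S1, 2 were higher and 4 lower. Ang4, an intestinal relative of Ang, had no count in the 6 libraries.

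Other islet endocrine types were identified by their defining genes. The α-cell list summed to 28870 ± 5318 TPM, of which Gcg made up most. Next came Ttr at 795 ± 198 TPM and Cltrn at 690 ± 158 TPM, a thyroxine carrier and a membrane protein. Cltrn was called higher in batch 2. The PP-cell list summed to 5538 ± 1625 TPM and the δ-cell list to 1527 ± 252 TPM. No δ-cell gene was called in edgeR's test, against 1 at an unadjusted p below 0.05 and 1 by DESeq2.

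Macrophage markers were present at low levels and were highest in S21. The list of 16 summed to 258 TPM or less in batch 1, to 372 and 433 TPM in S13 and S17 and to 824 TPM in S21. Lyz2, a lysozyme of myeloid cells, was at 46.6, 41.6 and 19.1 TPM in batch 1, at 43.1 and 94.2 TPM in S13 and S17 and at 363 TPM in S21. C1qa, a complement subunit, was at 217 ± 70.1 TPM and so made up most of the list's mean sum of 390 TPM. Its partners C1qb and C1qc were at 8.76 ± 10.03 and 5.07 ± 5.83 TPM. Each library thus had many more C1qa than C1qb or C1qc transcripts. C1qa and Itgax were called higher and Cd14 lower in batch 2 of 14 tested (6 higher without S1, 2 without S13 and at most 1 without each other library). The median log2 fold change was 1.49, and 0.75 without S21. In edgeR's test 9 were higher and 1 lower at an unadjusted p below 0.05, and DESeq2 called 6 higher and 1 lower.

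Endothelial and stromal genes were low. The endothelial list summed to 36.2 ± 11.6 TPM, with Eng, a receptor of vessel walls, highest at 11.3 ± 3.85 TPM and Pecam1 at 2.71 ± 1.21 TPM. Fibroblast and stellate markers summed to 222 ± 91.3 TPM, of which Acta2, smooth muscle actin, was 128 ± 43.5 TPM. Col1a1, a collagen, was at 83.6 TPM in S5 and at 11.8 to 32.7 TPM in the other 5. In edgeR's test none of the 12 endothelial and none of the 13 tested stromal genes was called, with 1 and 0 at an unadjusted p below 0.05 and 0 and 0 by DESeq2. Without S9, 4 endothelial genes and 1 stromal gene were lower in batch 2, and without S1, 1 stromal gene was higher.

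Glia, lymphocyte, fat and blood genes were low. Schwann and glia markers summed to 103 TPM in S9 and 95.7 TPM in S21 and to 14.3 to 45.9 TPM in the other 4, with Ngfr, a neurotrophin receptor, at 27.7 and 33.8 TPM in S9 and S21. Lymphocyte markers summed to 9.14 ± 1.75 TPM, nearly all of it Cd79a and Cd79b, and the T-cell genes Cd3d, Cd8a and Trbc2 and the killer cell gene Nkg7 had no count. Adipocyte markers summed to 2.38 ± 0.62 TPM and erythroid markers to 1.99 ± 1.28 TPM, with Hbb-bt at 0 in each library.

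Y-linked transcripts were found in each of the 6 libraries. Ddx3y, a helicase, was at 20.7 TPM in S1 and at 40.9 to 47.1 TPM in the other 5, and Eif2s3y was at 12.6 TPM in S1 and 27.3 to 37 TPM elsewhere. Xist, the RNA of the inactive X chromosome, was at 0.41 TPM or below. Of the 5 sex-linked genes tested, none was called between the batches by edgeR or DESeq2, and 1 had an unadjusted p below 0.05.

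The spread between libraries was larger than counting error at each level of expression. Over the 13888 genes the median coefficient of variation was 19.3%, against 4.36% from counting error alone. Part of it came from the scale, since it was 14.3% without S1, 15.4% for CPM with TMM factors and 15.3% for protein-coding TPM. On deposited TPM the median was 36% for genes at 1 to 3 TPM and 16.4% at 30 to 100 TPM. At 1000 TPM and above it was 23%, where counting error gave 0.62%. On that scale the most abundant genes were thus not the most stable. The common biological coefficient of variation was 28%, and 18% with a batch term.

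**Figure D5:**
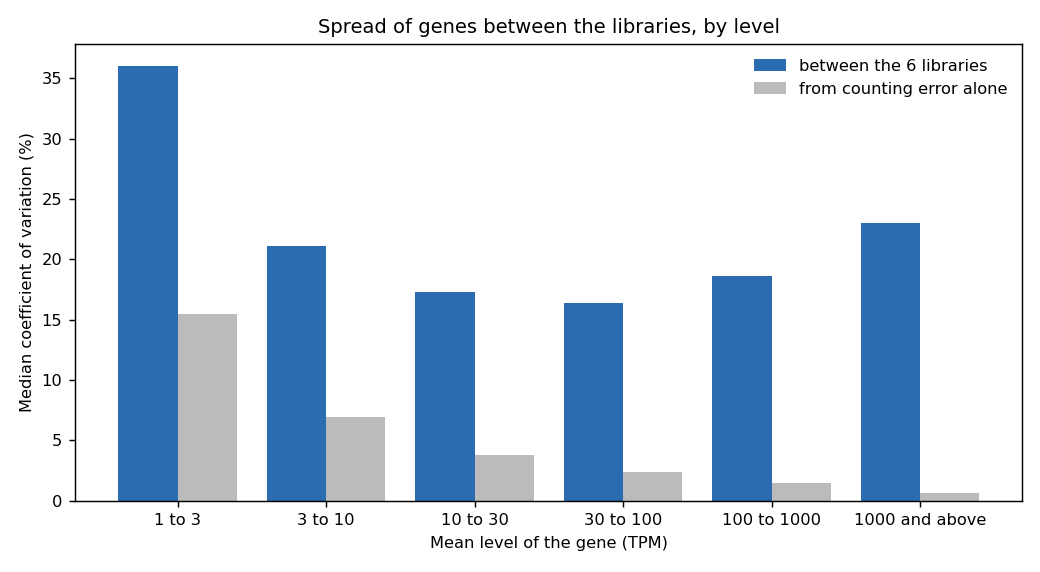
Median coefficient of variation over the 6 libraries (vertical axis, percent) of genes grouped by mean TPM (horizontal axis), in blue, beside the value that counting error alone would give, in grey. The blue bars stay at 16.4% or more while the grey bars fall from 15.5% to 0.62%.

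Batch carried much of that spread. On the TPM scale 4293 of the 13888 genes (30.9%) had ranges that did not overlap between the batches, 3188 of them higher in batch 2. TPM in S1 was lowered by its rRNA, and edgeR with TMM scaling called fewer genes higher (1155) than lower (1465). Between pairs of libraries, the correlation of log2(TPM + 1) across genes was 0.9649 to 0.9902 within a batch (6 pairs) and 0.9365 to 0.9609 between batches (9 pairs), as a description, since genes are not independent.

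The most and least stable genes were of different kinds. Among 8257 genes with at least 10 TPM and 100 counts on average, Mapk3, the kinase ERK1, varied least, from 197 to 209 TPM (coefficient of variation 2.26%). Pcgf1, a Polycomb protein, Asna1, which inserts membrane proteins, and Uqcrh, a subunit of respiratory complex III, also stayed under 3%. This ranking used deposited TPM, of which protein-coding genes held 75.4% in S1 and 93.4% to 98% in the other libraries. A gene at like TPM in all 6 was thus higher in S1 relative to other protein-coding genes. Stability was not ranked over protein-coding genes alone. The 10 genes that varied most were 4 structural RNAs that were highest in S1, n-R5-8s1, Rn7s1, Rn7s2 and Mir6236, and 6 acinar genes that were highest in S9, Amy2a1, Amy2a2, Amy2a5, Pnlip, Try4 and Zg16. Pnlip, for example, ranged from 21.3 to 4238 TPM, and Rn7s1, an RNA of the signal recognition particle, from 218 to 7162 TPM.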

How the data were processed

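Total RNA was purified from dispersed islet cells and sequenced as stranded mRNA libraries on an AVITI instrument. Reads were processed by the authors in QIAGEN's RNA-seq portal, and the submitters' processing notes name the genome build GRCm38. Neither aligner nor annotation nor filters are stated in those sources. For each library the deposited table gives the count of reads on exons, an RPKM, a TPM and a CPM signal scaled by the authors. An empty cell was read as 0, and 1 line without a gene was left out. All columns were matched to samples by their names. Levels are deposited TPM values, and RPKM served as an alternative. The CPM signal was not used.

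Counts of the 6 control libraries were filtered by filterByExpr, scaled by TMM and tested for batch with edgeR 4.0.16 (R 4.3.3), with Benjamini-Hochberg adjustment over 15393 genes and a threshold of 0.05. DESeq2 1.42.0 was an alternative. Standard errors came from the F statistic. The fit was tested on simulated counts of 15393 genes, of which 100 were changed 2-fold and 100 were changed 4-fold. It recovered 53% and 84% of these, with 11 false calls among the unchanged genes. In the data 17% of genes were called, a far larger share than was changed in the simulation, so these rates need not hold there. The SD is over the 6 libraries, and the counting error was taken from the counts. Intervals from counts cover counting error only, since reads carried no molecular identifiers. The labels number the libraries but do not say which animal each came from, so p-values measure the spread between these libraries.

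Promoter letters came from RefSeq entries on GRCm38.p6. Some members of the lists are not reported here. Gene lists were written by hand, and the libraries, lists and tests were chosen with earlier results of these data known. The genes named are the 25 of highest mean TPM, all measured hormone, granule, transcription factor and sex-linked genes, the 5 highest members of every other list, the 10 most and 10 least variable genes of at least 10 TPM and 100 counts, the 5 called genes of smallest p in each direction and the 5 genes farthest above the other libraries in each library. Lepr, Ffar4, Gcgr, Prlr, Slc2a1, Kcnj11, Isg15, Slc16a1, Hk1, Maf, Ang, Rnh1, Dicer1, Ago2, Ang4, Ptf1a, Bhlha15, Pnlip, Amy2a5, Tff2, Mki67, Top2a, Fos, Egr1, Cdkn1a, Hmox1, Atf3, Dnajb9, Hprt, Gapdh, Ffar1, Gipr, Cd14, Itgax, C1qc, Pecam1, Cd3d, Cd8a, Trbc2 and Nkg7 were named for their roles or calls after their values were seen where that rule did not take them. The same holds for H19, Neat1, Rian, Mirg, Pklr, Acaca, Acacb, Cpt1a, Cpt1b, Cpt1c, Ldhb, C1qb, Rgs16 and Hbb-bt.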

Additional observations from a re-analysis of the deposited data

Results flagged for a closer look

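Of 84 library measures, ratios, list sums and gene levels examined, 10 had 1 library far from the other 5 by Dixon's gap test. Chance flags about 1 in 20 of independent, normally distributed values. The values examined overlap, as the rRNA share and CT010467.1 do, so that rate is no measure of an excess here. S1 was that library in 6 of them, S21 in 2, and S5 and S17 in 1 each.

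In S1 the rRNA biotype held 21.2% of the TPM (1.06% to 5.31% in the others), and CT010467.1 alone was at 211360 TPM (10560 to 53065). The list of abundant noncoding RNAs summed to 9572 TPM in S1 against 1422 to 2371 TPM, with Rn7s1 at 7162 TPM. The stress list was low in S1, at 3330 TPM against 4670 to 5102 TPM, as was the sex-linked list, at 43.8 TPM against 87.6 to 102 TPM. Both sums are deposited TPM, which the rRNA of S1 lowers. With TPM rescaled over protein-coding genes, the SD between libraries fell from 668 to 372 TPM for the stress list. For the sex-linked list it fell from 21.6 to 17.2 TPM. The gap test was not repeated on that scale. Pcsk2 was 473% of Pcsk1 in S1 and 320% to 365% in the others.

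In S21 the macrophage list reached 824 TPM (200 to 433 TPM elsewhere) and the MHC class II list, genes of antigen presentation, 101 TPM (19.6 to 35.6 TPM). The same library had Mmp3, a matrix protease, at 49.3 TPM and 0.14 TPM or less in the other 5, Clec4n, a lectin of myeloid cells, at 14.9 TPM against at most 0.28 TPM, and Mmp9 at 6.70 TPM against at most 0.39 TPM. Ldha was 384% of Ldhb in S5 and 116% to 198% elsewhere, and Chga was at 12428 TPM in S17 against 7065 to 8820 TPM. Between batches the differences were tested gene by gene only, and the part of any single library in them was measured by leaving it out.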

How the results depend on the processing

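No paired analysis was possible because all 6 libraries belong to 1 group and the labels tie no library of batch 1 to one of batch 2. The number of genes called between batches was 2620. At an unadjusted p below 0.05 and an absolute log2 fold change above 1, the number was 1015 (200 higher and 815 lower). The study gives the same cut-offs without saying whether its p was adjusted, and its methods name Benjamini-Hochberg correction. With library totals in place of TMM, an alternative chosen after seeing the data, 1677 were called, and with 1 library left out 930 to 4334. Upper-quartile scaling (2647), DESeq2 (3308), other filters (2654 and 2751) and removal of structural RNAs (2667) or of the acinar list (2622) kept the number within 1.5 times. As a share of raw counts, which is not length-corrected, insulin was 9.39%, all hormones 12.9% and the number of genes holding 50% of the total 587 on average. Without mitochondrial genes that number was 54.2. In summed CPM, the lists came to 118910 (β-cell), 16210 (α-cell), 454 (δ-cell), 1127 (PP-cell), 60.7 (endothelial), 368 (fibroblast), 5.49 (lymphocyte) and 0.57 (erythroid). The biological coefficient of variation fell to 18% with a batch term. Of the genes with a fold change named here, Sst alone changed sign, and with 1 library left out it ran from -0.36 (without S5) to 0.19 (without S1). With library totals, Actb, Rnh1 and Rian lost their calls, and by DESeq2 Gcg was called lower. Of 171 recomputed main values, 150 stayed within 1 SD or 1.5 times, 114 of them with 1 library left out. For shares and list sums that outcome was fixed, because leaving out 1 of 6 libraries cannot move their mean by 1 SD. The RPKM alternative was fixed too, since TPM is RPKM rescaled. For those values the tally is therefore no measure of stability. Depth was 18214719 to 35001979 counts, so levels under 1 TPM rest on few reads.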

Other observations

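Several enzymes occur as gene families, and in some of them 1 member was far above another in the control cells. Pyruvate kinase Pkm was at 382 ± 41.6 TPM and Pklr at 10.6 ± 1.23 TPM, a ratio of 36.4 ± 4.07. Acetyl-CoA carboxylase Acaca was 7.06 to 9.12 times as high as Acacb in batch 1 and 29.6 to 42.3 times in batch 2, where Acacb was at 0.38 to 0.50 TPM. The carnitine transferase Cpt1a (12.8 ± 2.73 TPM) and the brain form Cpt1c (11.8 ± 1.37 TPM) were at like levels, and the muscle form Cpt1b was at 1.06 ± 0.57 TPM. Of 29 family genes tested, edgeR called 2 higher and 6 lower in batch 2, 5 and 8 without S1 and 1 and 4 without S5, S9, S13 or S21.

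Among long noncoding RNAs, Malat1 was at 751 ± 273 TPM and Neat1 at 36.9 ± 4.42 TPM. The maternally expressed RNAs Meg3 (246 ± 56.2 TPM), Rian (87.4 ± 20.2 TPM) and Mirg (21.6 ± 5.62 TPM), which lie in 1 imprinted cluster, were each called higher in batch 2, with log2 fold changes of 0.46, 0.44 and 0.55. Without S5, S9 or S13 none of them was called. H19, the RNA of another imprinted locus, was at 0.16 TPM or less. Rn7sk, an RNA that restrains transcription elongation, was at 323, 296 and 230 TPM in batch 1 and at 56.7, 56 and 54.6 TPM in batch 2 (log2 fold change -2.48, SE 0.22, edgeR adjusted p = 0.00112).

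Genes found mainly in 1 library differed in kind. S9 had the neuronal genes Stmn2 at 2.15 TPM (0.26 TPM or less elsewhere), Vip at 13.3 TPM (at most 2.39 TPM) and Prph at 11.3 TPM (at most 2.15 TPM). S5 had the matrix genes Lox at 124 TPM (at most 39.9 TPM) and Svep1 at 3.09 TPM (at most 0.88 TPM). S17 had Pdyn, the dynorphin precursor, at 1340 TPM, and the next library was at 704 TPM. With at least 100 counts, 76 genes in S21 were at 2 or more times the next library, 48 in S5, 21 in S9, 17 in S1, 4 in S13 and 2 in S17.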
